A study of Homo sapiens with 22 samples.

Results

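The comparison described here set HEK293 cells with an induced dCas9-p300 fusion and a guide against HBB (p300 sgHBB) against HEK293 cells with no fusion (WT), over all genes. Its members are the RNA libraries whose count columns carry those names, 2 per group, which makes 4 of the 22 samples in the series. HEK293 is a line derived from human embryonic kidney. Fusion-bearing cells received doxycycline for 48 hours and were sorted as positive for both GFP and BFP. The WT cells held an sgRNA alone and were sorted for BFP. Their label gives no treatment, so whether they received doxycycline is not settled, and which guide they held is not stated. Effects of the guide, of the sorting and of any difference in doxycycline cannot be told apart from one of the fusion. Another pair of groups is given beside these where it bears on a result. In p300 D1399Y sgHBB the fusion carries a substitution that impairs its catalysis and the guide is the same, and in VPRP non-target p300 is joined to the activator VPR and the guide has no target. VPR sgHBB, with VPR alone, and VPRP sgHBB, with the joined domains, carry the HBB guide and are given only where a library difference is at issue. Whether any line was a single clone is not stated in the labels. The series describes the libraries of a group as biological replicates, and p-values measure the spread between these libraries.

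p300, encoded by EP300, is a coactivator that places acetyl groups on lysines of histone tails and of other proteins. It is recruited to enhancers and promoters by DNA-binding factors, among them CREB, AP-1 and p53, and acetylated chromatin in turn is bound by bromodomain proteins that help start transcription. Catalytically dead Cas9 (dCas9) brings a fused domain to the site of its guide RNA without cutting. HBB, the beta-globin gene, is normally silent outside red cell precursors, so HEK293 cells offer a low starting level. An induced acetyltransferase is also present away from its guide, and the comparison asks which other genes changed with it.

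Poly(A) RNA was sequenced to 16302405 and 17058494 counted reads in the p300 sgHBB libraries and 15505635 and 15781059 in the WT libraries. Levels are given as CPM, which is reads scaled to the library's total times its TMM factor, without correction for gene length, so they compare samples and not genes. A gene passed the test when its adjusted p was under 0.05 by the quasi-likelihood test of edgeR, adjusted over 16694 genes by the method of Benjamini and Hochberg. All adjusted p-values below come from it. Levels are given for each library, and counts at 0 allow up to 3 reads over a group, which is 0.09 CPM in p300 sgHBB and 0.0989 CPM in WT, for counting error only.

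Some differences run through whole groups of libraries and have to be known first. MAGEA10, a cancer-testis antigen gene, had no read in the p300 sgHBB libraries, 0 and 0.138 CPM in p300 D1399Y sgHBB, 0.261 and 0.166 CPM in VPRP sgHBB, 24.9 and 26.96 CPM in VPR sgHBB and 32.1 and 32.02 CPM in VPRP non-target, against 9.34 and 9.57 CPM in WT. TWIST2, a mesenchymal transcription factor gene, had 3.61 and 4.42 CPM in p300 sgHBB, 4.22 and 4.43 CPM in p300 D1399Y sgHBB, 4.11 and 2.93 CPM in VPRP sgHBB and 0.0607 and 0 CPM in VPRP non-target, and no read in VPR sgHBB or WT. Both genes set p300 sgHBB, p300 D1399Y sgHBB and VPRP sgHBB apart from VPR sgHBB, VPRP non-target and WT. Whole stretches of chromosomes 3, 4, 8, 10 and 13 also differed from WT in the same direction in p300 sgHBB and p300 D1399Y sgHBB, as set out at the end. Counts of genes against p300 D1399Y sgHBB are therefore printed beside those against WT for each gene list, since these 2 groups lie on the same side of both differences. Whether the lines differed before induction was not tested. EP300 reads also differ between the fusions, as given next, so the substitution and the amount of fusion RNA cannot be told apart.

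HBB, the gene at the guide, and EP300, which the fusion carries, check the labels. HBB had 189 and 185 CPM in the p300 sgHBB libraries and no read in the WT libraries. It was at least 1890-fold higher (adjusted p = 2.51e-25), or 10.89 on the log2 scale. The limit rests on the floor of 3 reads and became 9.91 on the log2 scale when WT replicate 1 was left out, and 9.86 when replicate 2 was. EP300 had 1116 and 1132 CPM in p300 sgHBB, 195 and 194 CPM in p300 D1399Y sgHBB and 1165 and 1179 CPM in VPRP non-target, against 110.4 and 103 CPM in WT. It was 10.6-fold higher than in WT (log2 3.40, SE 0.0896, adjusted p = 1.62e-25), and reads of the construct and of the cells' own gene cannot be told apart in these counts. The groups did not overlap for either gene.

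The rest of the beta-globin locus stayed close to 0. Of the 10 annotated genes on either side of HBB, 18 in all are in the count table. HBE1, the embryonic epsilon-globin, had 85 reads over the p300 sgHBB libraries and 3 over the WT libraries, a count ratio of 25.8 with a 95% interval of 8.53 to 128 (adjusted p = 6.28e-07). HBD, the delta-globin gene next to HBB, had 1 read in p300 sgHBB and 0 in WT, and the pseudogene HBBP1 likewise 1 and 0. HBG2, a fetal globin with a near-identical copy, had 10 and 6 reads, with no call (adjusted p = 0.66). OR51B4, an olfactory receptor gene beyond HBE1, had 13 reads in p300 sgHBB and 1 in WT, and was not among the tested genes. It also had 13 reads in VPRP non-target and 1 in p300 D1399Y sgHBB. HBE1 also had 2.55 and 2.60 CPM in VPRP non-target, whose guide does not target the locus, and 0 and 0.0692 CPM in p300 D1399Y sgHBB. The red cell factors GATA1 and KLF1 and the heme enzyme ALAS2 had too few reads to be tested. Of 15 tested erythroid genes, 5 were higher and 2 lower than in WT, beside 24.5% and 21.6% of all tested genes, and 0 were higher and 3 lower against p300 D1399Y sgHBB (median log2 -0.19), the number lower becoming 1 without p300 sgHBB replicate 1. Of all genes 15.4% were higher and 15.0% lower in that comparison. The higher members were NFE2, a factor that binds the globin control region, ANK1, of the red cell membrane skeleton, EPOR, the erythropoietin receptor, GATA2, a factor of early blood progenitors, and TFRC, the transferrin receptor. GATA2 lies in a stretch of chromosome 3 whose genes had a median of log2 0.42 against WT. It did not differ detectably from p300 D1399Y sgHBB (log2 -0.06, adjusted p = 0.688). NFE2 had 0.490 and 0.471 CPM in p300 sgHBB, against 0.0672 and 0.129 CPM in WT, a count ratio of 4.86 with a 95% interval of 1.39 to 26 (adjusted p = 0.0457), a call lost with any 1 library left out, with the replicate block, without the low-count filter and in DESeq2. ANK1, EPOR, GATA2 and TFRC were at log2 0.89, 0.53, 0.53 and 0.39; the call of EPOR was lost without p300 sgHBB replicate 2 or WT replicate 2. ANK1 and EPOR were lower than in p300 D1399Y sgHBB, at -0.90 and -0.44, the second a call lost without p300 sgHBB replicate 1 or p300 D1399Y sgHBB replicate 2. The number higher became 3 when p300 sgHBB replicate 2 or WT replicate 2 was left out, and the number lower 1 when p300 sgHBB replicate 2 or WT replicate 1 was left out.

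**Figure D1:**
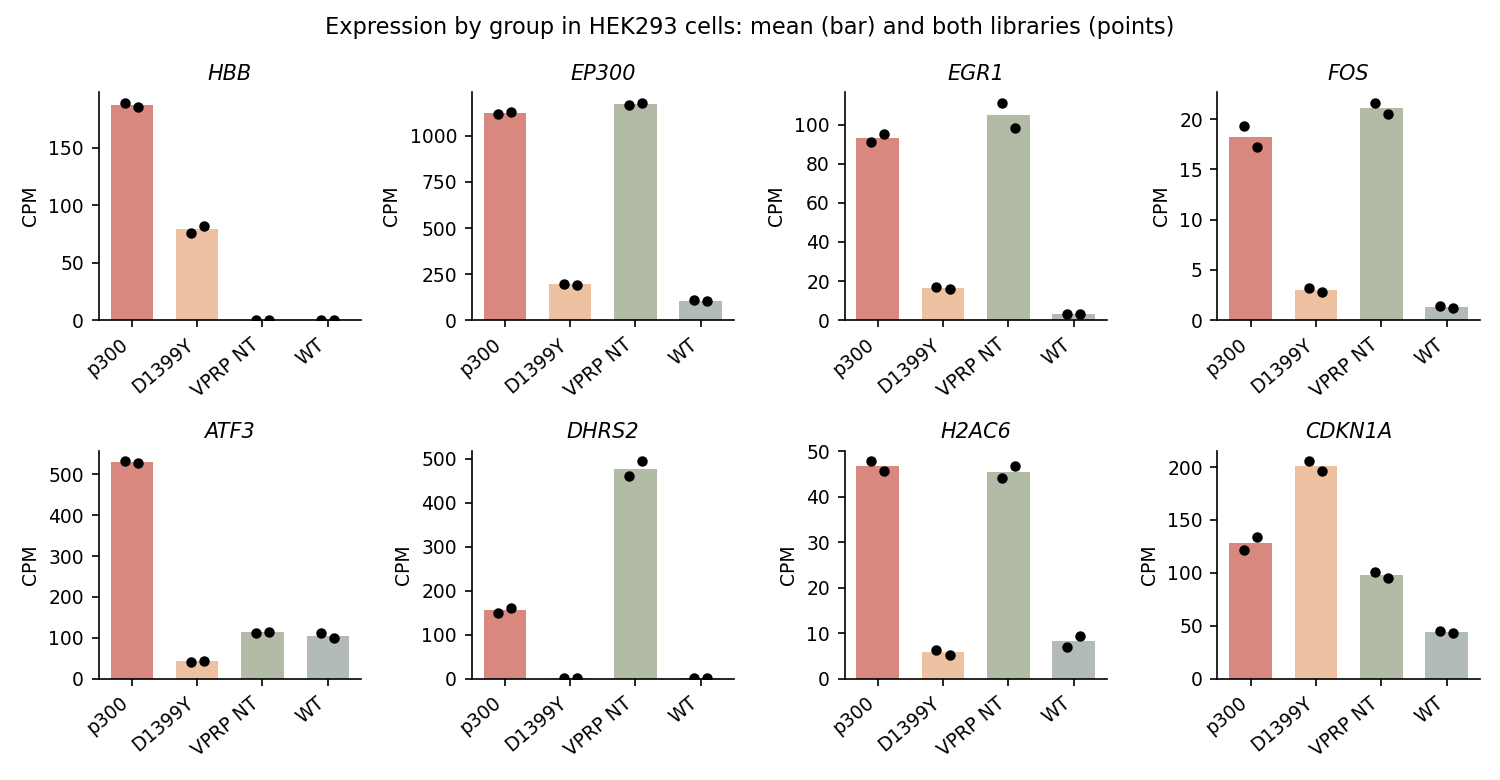
Expression in CPM of HBB, EP300 and 6 further genes in p300 sgHBB, p300 D1399Y sgHBB, VPRP non-target and WT. Bars are means and points are the 2 libraries of a group; for EGR1, FOS, DHRS2 and H2AC6 both libraries of p300 sgHBB and of VPRP non-target lie above those of p300 D1399Y sgHBB and WT, while ATF3 is highest in p300 sgHBB and CDKN1A highest in p300 D1399Y sgHBB.

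Beyond the target, expression changed widely and mostly by small amounts. In p300 sgHBB, 4084 genes (24.5% of those tested) were higher than in WT and 3610 (21.6%) were lower, and 7694 (46.1%) passed in either direction. Of these, 5762 changed by less than 2-fold. At 2-fold or more, 1468 genes (8.79%) were higher and 464 (2.78%) lower, together 1932 (11.6%), and at 4-fold or more 653 were higher and 116 lower. The median log2 change over all tested genes was 0.03. The excess of large rises lay among genes of low expression. Where the mean log2 CPM was from 0 to 1, 21.6% of 1420 genes were at least 2-fold higher and 6.48% at least 2-fold lower. Among 1537 genes of log2 CPM 7 and above, 1.04% were at least 2-fold higher and 0.455% lower, and the median change was -0.09. Counting changes of any size, 312 of these genes were higher and 625 lower. Of 4907 genes of log2 CPM from 5 to 7, 1184 were higher and 1609 lower.

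**Figure D2:**
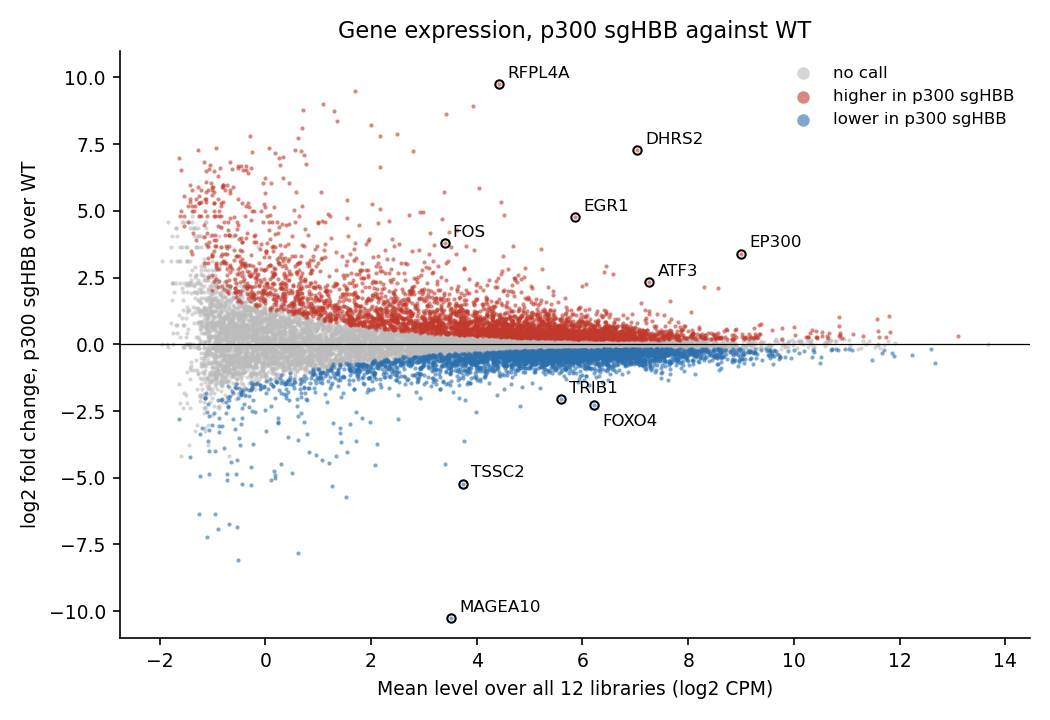
Each point is 1 of the tested genes, with its mean level over the 12 libraries (log2 CPM) on the horizontal axis and its fitted log2 fold change, p300 sgHBB over WT, on the vertical axis. HBB lies above the range shown; large rises gather at low levels, where 0 reads in WT make the fitted size depend on the prior count, while EP300 and ATF3 stand out among genes of high level.

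The largest rises took in genes with next to no reads in WT. DHRS2, a short-chain dehydrogenase gene, had 150.3 and 161 CPM in the p300 sgHBB libraries, against 1.01 and 0.970 CPM in the WT libraries (156-fold, log2 7.29, SE 0.149, adjusted p = 6.43e-29). RFPL4A, a RING-finger gene of the early embryo, had 7.65 and 5.71 CPM in p300 sgHBB and none in WT (at least 67.4-fold, adjusted p = 7.07e-15). MIR7-3HG, the host gene of a microRNA, had 16.3 and 15.7 CPM in p300 sgHBB and 0 and 0.0647 CPM in WT. Its fitted log2 change of 8.62 became 7.79 when WT replicate 1 was left out, and 11.02 when WT replicate 2 was. These 3 genes were near 0 in p300 D1399Y sgHBB as well, with 1.85 and 1.52 CPM for DHRS2, 0.116 and 0.0692 CPM for RFPL4A and 0 and 0 CPM for MIR7-3HG, and were high in VPRP non-target, with 461 and 494, 81.6 and 80.8 and 32.2 and 32.6 CPM in that order.

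Other genes complete the 12 largest rises. FGF23, a hormone that lowers phosphate, had 2.88 and 2.24 CPM in p300 sgHBB, 0.0578 and 0.207 CPM in p300 D1399Y sgHBB and none in WT (at least 25.8-fold over WT). GRM2, a glutamate receptor gene, had 4.16 and 3.95 CPM in p300 sgHBB and 0.0672 and 0 CPM in WT, a count ratio of 123 with a 95% interval of 21.7 to 4890. SCIRT, a long non-coding RNA, had 41.7 and 38.5 CPM in p300 sgHBB and 0.336 and 1.03 CPM in WT (57.3-fold), and 0.983 and 0.761 CPM in p300 D1399Y sgHBB. With so few WT reads, 1 library sets the size: fitted log2 changes were 9.05 for GRM2 without WT replicate 1, 5.76 without the other, and 6.86 without WT replicate 2 for SCIRT, against 6.64 and 5.84 with both. FRG2 and FRG2B, paralogs of the telomeric FRG2 family, were at least 18.2-fold and 37.9-fold higher than in WT, and PRR20G at least 17.6-fold; all 3 have near-identical copies, between which the reads cannot be split with certainty. TWIST2 and ALPG, an alkaline phosphatase gene, were the last of these, with at least 40.7-fold and 23.4-fold, and neither differed detectably from p300 D1399Y sgHBB (log2 -0.10, adjusted p = 0.833, and log2 0.76, adjusted p = 0.107).

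The largest falls had another pattern across the groups. TSSC2, a transcribed pseudogene, had 1.16 and 0.824 CPM in p300 sgHBB, 0.578 and 0.692 CPM in p300 D1399Y sgHBB and 25.7 and 23.5 CPM in VPRP non-target, against 36.6 and 37.9 CPM in WT. CHRM3, a muscarinic acetylcholine receptor gene, had 0.612 and 1.001 CPM in p300 sgHBB, 0.578 and 0.622 CPM in p300 D1399Y sgHBB and 24.6 and 20.6 CPM in VPRP non-target, against 18.7 and 17.98 CPM in WT. FLI1, an ETS factor of blood and vessel cells, fell to 0.184 and 0.294 CPM in p300 sgHBB, against 4.30 and 5.76 CPM in WT (20.4-fold). MAGEA10, LINC00470, WDR72, MKRN3, FAM86GP, ZNF883 and FZD10-AS1 were likewise low in both p300 fusions, with at most 1.18 CPM in any library. None of these 10 genes was called different from p300 D1399Y sgHBB, which at such counts does not show equal levels: fitted log2 differences were 1.85 for WDR72, -0.88 for MKRN3 and -0.98 for FZD10-AS1. GDA, a guanine deaminase gene, was 13.4-fold lower than in WT and higher than in p300 D1399Y sgHBB (log2 1.88, adjusted p = 0.0342), a call lost without p300 sgHBB replicate 1, without p300 D1399Y sgHBB replicate 2 and in DESeq2. Without p300 sgHBB replicate 2 the log2 changes against WT of WDR72, FAM86GP and LINC00470 were -5.47, -5.02 and -9.38, in place of -4.52, -4.20 and -5.73. Without p300 sgHBB replicate 1 those of GDA, MKRN3 and LINC00470 were -4.50, -5.68 and -4.81, in place of -3.74, -4.43 and -5.73, and MKRN3 was at -3.75 without replicate 2. The relation of these falls to the fusion's activity was not tested.

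By absolute level, the increases with the largest CPM differences included mitochondrial and stress genes. Among them ATF3, a stress-induced factor of the AP-1 family, had 532 and 527 CPM in p300 sgHBB, 41.4 and 44.2 CPM in p300 D1399Y sgHBB and 113 and 114 CPM in VPRP non-target, against 111 and 99.2 CPM in WT. ATF3 was 5.04-fold higher than in WT (adjusted p = 4.67e-23) and 12.4-fold higher than in p300 D1399Y sgHBB (adjusted p = 1.13e-27). CA2, a carbonic anhydrase gene, had 556 and 557 CPM in p300 sgHBB, 448 and 484 CPM in p300 D1399Y sgHBB and 184 and 183 CPM in VPRP non-target, against 127 and 125 CPM in WT. The mitochondrial transcripts MT-CO3, MT-ATP6 and MT-CO2 were 2.08-fold, 2.04-fold and 1.92-fold higher than in WT. All mitochondrial genes together took 2.94 and 3.17% of the reads in p300 sgHBB and 2.71 and 3.11% in p300 D1399Y sgHBB, against 2.10 and 1.88% in WT, and 11 of 13 rose against WT while 0 were called higher and 0 lower against p300 D1399Y sgHBB. The number higher than in WT became 7 without WT replicate 2 (5 in DESeq2), and against p300 D1399Y sgHBB the number lower became 1 without p300 D1399Y sgHBB replicate 1.

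Among the falls, the largest losses of level were in CDT1, a DNA replication licensing gene (223 and 231 CPM in p300 sgHBB, against 505 and 488 CPM in WT), and in SQLE, an enzyme of cholesterol synthesis (139 and 142 CPM, against 355 and 356 CPM in WT). NDRG1, GRINA and SQLE lie in the distal bins of chromosome 8, whose genes were lower as a body, with bin medians of log2 -0.60, -0.62 and -0.29, and FLII in a bin of chromosome 17 with a median of -0.30. FOXO4, a forkhead factor in insulin signalling, had 31.4 and 34.5 CPM in p300 sgHBB, 30.98 and 29.5 CPM in p300 D1399Y sgHBB and 74.9 and 72.6 CPM in VPRP non-target, against 165 and 153 CPM in WT. FOXC1, another forkhead factor, had 127 and 141 CPM in p300 sgHBB, 304 and 293 CPM in p300 D1399Y sgHBB and 74.5 and 77.6 CPM in VPRP non-target, against 279.8 and 282 CPM in WT, and was lower against both (log2 -1.07 and -1.15).

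Most immediate early genes rose. They are transcribed within minutes of growth factor, calcium or stress signals, from promoters held by SRF, CREB and related factors. Of 35 tested members, 22 were higher and 6 lower than in WT, with a median log2 change of 0.57, beside 24.5% and 21.6% and a median of 0.03 for all genes. Against p300 D1399Y sgHBB, 18 were higher and 6 lower (median 0.42), beside 15.4% and 15.0% of all genes; the number lower became 3 without p300 D1399Y sgHBB replicate 1.

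The promoters of EGR1 and FOS, the immediate early genes that define the class, are shown because both genes rose and both windows hold binding motifs of the signal-dependent factors. The sequences are RefSeq windows of 300 bases, from 250 before to 50 after the start, on GRCh38.p14, both on the plus strand. EGR1 lies at chr5:138465229-138465528 and FOS at chr14:75278578-75278877. Capitals mark the CArG box, the SRF motif, and TGACG, the core of the CREB motif, on either strand.
EGR1: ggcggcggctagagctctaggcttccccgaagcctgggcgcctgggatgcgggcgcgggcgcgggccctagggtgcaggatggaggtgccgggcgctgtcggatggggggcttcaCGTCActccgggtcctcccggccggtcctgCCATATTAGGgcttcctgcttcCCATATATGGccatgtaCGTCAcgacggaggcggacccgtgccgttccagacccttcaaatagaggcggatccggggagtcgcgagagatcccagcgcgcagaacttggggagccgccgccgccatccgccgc
FOS: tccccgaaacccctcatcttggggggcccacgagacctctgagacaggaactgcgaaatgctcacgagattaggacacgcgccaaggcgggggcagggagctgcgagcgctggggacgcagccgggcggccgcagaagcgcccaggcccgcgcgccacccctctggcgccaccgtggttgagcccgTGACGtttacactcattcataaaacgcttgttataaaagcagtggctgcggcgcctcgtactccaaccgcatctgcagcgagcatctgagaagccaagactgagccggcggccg
The EGR1 window holds 2 CArG boxes and 2 copies of TGACG, both on the reverse strand (read as CGTCA), and the FOS window 1 copy of TGACG and no CArG box. The full CREB site TGACGTCA and the AP-1 site TGANTCA are in neither. The window of DHRS2, which also rose, was scanned in the same way and holds none of these motifs. Over all 35116 promoter windows of this length, 1.29% hold a CArG box, 24.6% TGACG, 1.85% TGACGTCA, which contains TGACG, and 7.71% TGANTCA, on either strand. Among the 1455 windows of genes at least 2-fold higher than in WT, 1.17% hold a CArG box, 25.8% TGACG, 2.2% TGACGTCA and 7.29% TGANTCA, and among the 17462 windows of tested genes 1.12%, 30.9%, 2.72% and 5.14%.

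EGR1, a zinc-finger factor, had 91.1 and 95.3 CPM in the p300 sgHBB libraries, against 3.43 and 3.43 CPM in the WT libraries (log2 4.76, SE 0.144, adjusted p = 7.33e-24). It had 16.9 and 15.9 CPM in p300 D1399Y sgHBB, 111 and 98.3 CPM in VPRP non-target and 6.14 and 3.76 CPM in VPR sgHBB. FOS, the AP-1 subunit, had 19.3 and 17.3 CPM in p300 sgHBB, against 1.41 and 1.23 CPM in WT (log2 3.78, SE 0.209, adjusted p = 2.21e-16). No p300 sgHBB library overlapped a WT library for either gene, and VPRP non-target, with 21.6 and 20.6 CPM for FOS, lay near p300 sgHBB for both. The list as a whole did not. Of its 35 tested members, 4 were higher and 21 lower in p300 sgHBB than in VPRP non-target (median log2 -0.81). Among all genes 23.2% were higher and 23.6% lower in that comparison.

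Other members spread widely. ARC, a regulator of synaptic receptors, rose by log2 3.32 (3.99 without WT replicate 2) although its bin of chromosome 8 had a median of -0.60, and CCN2, a matricellular protein gene, rose by log2 2.52. EGR3, a relative of EGR1, had 0.979 and 1.35 CPM in p300 sgHBB, against 0.0672 and 0.259 CPM in WT (log2 2.77; 2.14 when WT replicate 1 was left out and 3.97 when replicate 2 was), and was not called against p300 D1399Y sgHBB. SGK1, a kinase, PLK2, a polo-like kinase, and IER3 rose by log2 2.21, 1.93 and 1.63, and all 3 were higher than in p300 D1399Y sgHBB too. The inhibitors of basic helix-loop-helix factors ID1, ID2 and ID3 rose by log2 1.74, 1.38 and 1.54. MYC and TRIB1, which lie in a bin of chromosome 8 with a median of log2 -0.29, fell, at -0.77 and -2.06; against p300 D1399Y sgHBB MYC was at log2 -0.06 (adjusted p = 0.518) and TRIB1 at -0.29, a call lost without p300 sgHBB replicate 2, without p300 D1399Y sgHBB replicate 1 and with no low-count filter. SRF itself fell, at log2 -0.41.

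In the AP-1 list, 5 of 15 members rose and 2 fell against WT, beside 24.5% and 21.6% of all genes. Those shares, and 15.4% and 15.0% against p300 D1399Y sgHBB, also stand beside the MAP kinase list below. In the list 5 were higher and 3 lower against p300 D1399Y sgHBB (median log2 0.16), the number lower becoming 1 when p300 sgHBB replicate 2 or p300 D1399Y sgHBB replicate 2 was left out. Beside FOS and ATF3, FOSB rose by log2 2.45, and JUNB by 0.97. JUN, the main dimer partner of FOS, had 594 and 632 CPM in p300 sgHBB, 263 and 257 CPM in p300 D1399Y sgHBB and 572 and 557 CPM in VPRP non-target, against 642 and 636 CPM in WT. JUN did not differ detectably from WT (log2 -0.06, SE 0.0691) and was higher than in p300 D1399Y sgHBB (log2 1.24, adjusted p = 1.38e-15). JUND fell, at log2 -0.49 against WT and was higher by 0.48 against p300 D1399Y sgHBB, and MAFG fell, at -0.81. Of the 20 tested feedback genes of MAP kinase signalling, 6 rose and 4 fell against WT. In this list 6 were higher and 3 lower against p300 D1399Y sgHBB (median log2 -0.12), the number lower becoming 1 when p300 sgHBB replicate 1, p300 sgHBB replicate 2 or p300 D1399Y sgHBB replicate 1 was left out. The phosphatases DUSP5, DUSP10 and DUSP1 rose by log2 2.04, 1.76 and 1.10, and the phosphatases DUSP4 and DUSP16 fell, at -1.03 and -0.79. SPRED1 and SPRED2, inhibitors of the pathway, fell, at -0.69 and -0.68. ETV4, an ETS factor, had 0.612 and 0.707 CPM in p300 sgHBB, against 0.202 and 0.129 CPM in WT (log2 1.95), a call lost with any 1 library left out, without the low-count filter and in DESeq2.

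**Figure D3:**
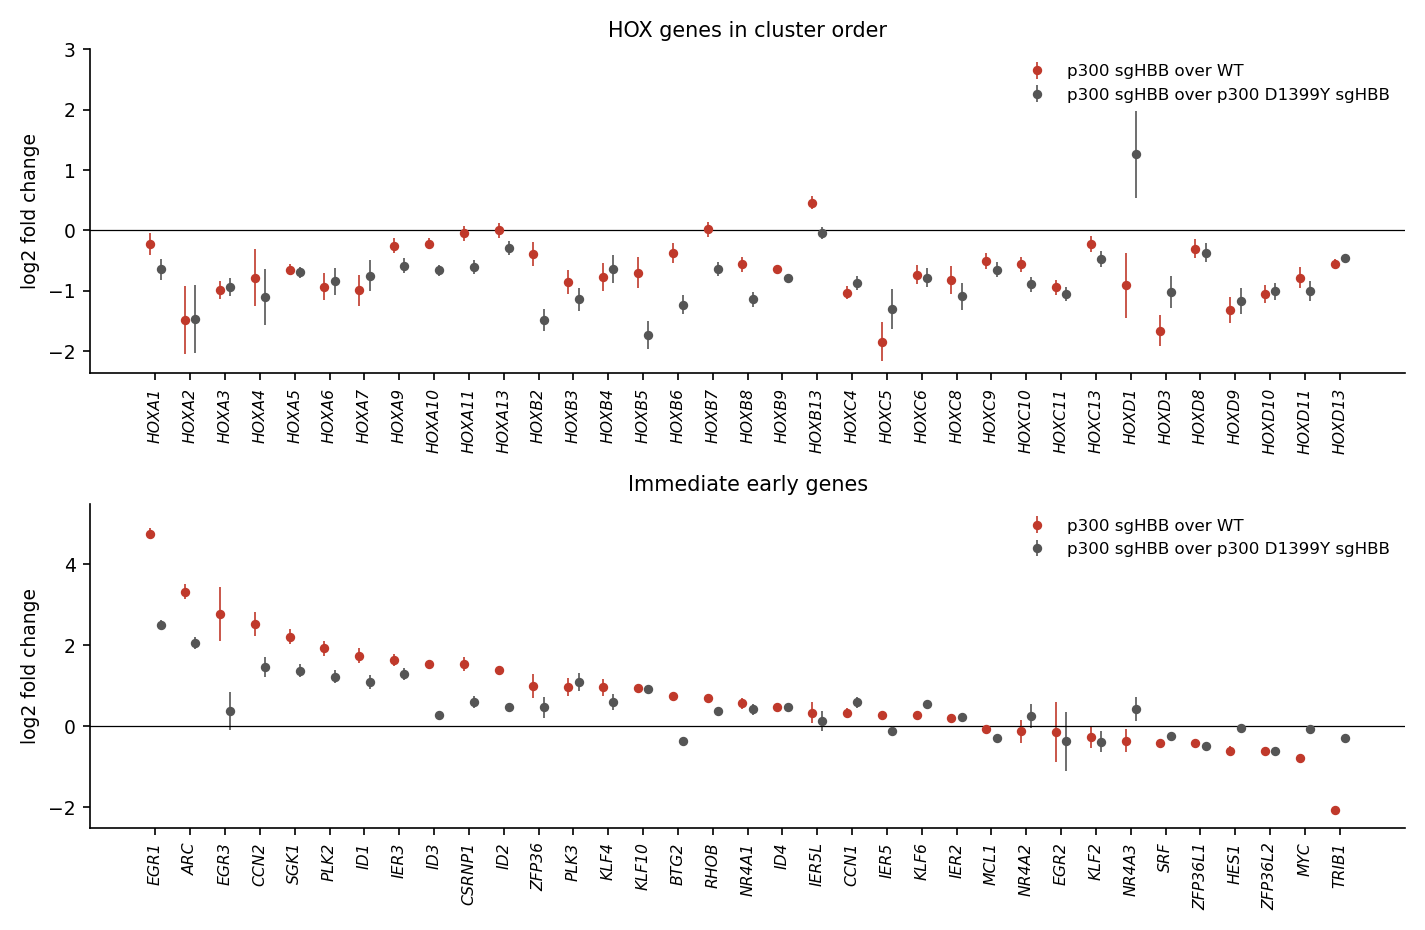
Fitted log2 fold changes of the tested HOX genes (top) and immediate early genes (bottom), p300 sgHBB over WT and over p300 D1399Y sgHBB; points are estimates and bars ± 1 SE. EGR1 stands at 4.76 over WT and 2.51 over p300 D1399Y sgHBB, and most HOX genes lie below 0 in both comparisons.

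Histone genes rose as well. Replication-dependent histone genes are transcribed in S phase and usually yield transcripts without a poly(A) tail, so a poly(A) library holds only their polyadenylated fraction, and near-identical copies share reads. Of 22 tested genes, 17 rose and 0 fell against WT (median log2 1.46), and 11 rose and 0 fell against p300 D1399Y sgHBB (median 0.99), the number higher becoming 6 without p300 sgHBB replicate 2 and 5 without p300 D1399Y sgHBB replicate 1. Beside these and the other histone genes below, 24.5% of all genes were higher and 21.6% lower than in WT. Against p300 D1399Y sgHBB the shares were 15.4% and 15.0%. H2AC6 had 47.7 and 45.6 CPM in p300 sgHBB, 6.36 and 5.33 CPM in p300 D1399Y sgHBB and 43.97 and 46.7 CPM in VPRP non-target, against 7.06 and 9.38 CPM in WT. The list as a whole was not near VPRP non-target. In p300 sgHBB 0 of 22 were higher and 17 lower than there (median log2 -1.34), beside 23.2% and 23.6% of all genes. H4C8 had 6.18 and 6.12 CPM in p300 sgHBB and 0.578 and 0.830 CPM in p300 D1399Y sgHBB, against 0.403 and 0.388 CPM in WT. H1-3, a linker histone, had 0.612 and 0.824 CPM in p300 sgHBB and no read in WT (at least 7.28-fold), and H3C4 had 0.428 and 1.41 CPM, against 0.134 and 0 CPM in WT, a count ratio of 14.1 with a 95% interval of 3.59 to 122. The fitted log2 change of H3C4, 3.66, ran from 2.56 without p300 sgHBB replicate 2, where the call was lost, to 6.93 without WT replicate 1. Neither H1-3 nor H3C4 was called against p300 D1399Y sgHBB. For H2AC6 and H4C8 the p300 sgHBB libraries lay above all of p300 D1399Y sgHBB and WT (log2 2.50 and 3.93 over WT).

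H1-2, a linker histone, and H2BC5 rose by log2 2.20 and 2.21, and H2BC12 by 0.62. Among 11 histone genes expressed outside S phase, 6 rose and 1 fell against WT. In the list 4 were higher and 2 lower against p300 D1399Y sgHBB (median log2 0.04), the number higher becoming 2 without p300 D1399Y sgHBB replicate 1, and the number lower 1 when p300 sgHBB replicate 2, p300 D1399Y sgHBB replicate 1 or p300 D1399Y sgHBB replicate 2 was left out. H1-10 rose by log2 1.21, in a bin of chromosome 3 with a median of 0.42. CENPA, the centromeric variant, rose by 0.85, and MACROH2A2 fell, at -0.33.

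HOX genes, the clustered homeobox factors that set position along the body axis and that HEK293 cells express from all 4 clusters, moved the other way. Of 35 tested, 22 fell and 1 rose against WT (median log2 -0.70), beside 21.6% and 24.5% of all genes. Against p300 D1399Y sgHBB 30 fell and 0 rose (median -0.84), beside 15.0% and 15.4%. HOXB9 had 128 and 126 CPM in p300 sgHBB and 221 and 220.4 CPM in p300 D1399Y sgHBB, against 202 and 194 CPM in WT. HOXC4 had 23.5 and 23.9 CPM in p300 sgHBB and 43.1 and 43.6 CPM in p300 D1399Y sgHBB, against 46.2 and 50.8 CPM in WT. The p300 sgHBB libraries were the lowest of the 3 groups for both genes. The listed HOX genes summed to 591 and 586 CPM in p300 sgHBB, 857 and 857 CPM in WT and 483 and 457 CPM in VPRP non-target. Against VPRP non-target 13 were higher in p300 sgHBB and 9 lower (median log2 0.24).

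The falls ran through every cluster. HOXA2 had 0.490 and 0.471 CPM in p300 sgHBB, against 1.21 and 1.49 CPM in WT (log2 -1.48), a call lost with any 1 library left out and in DESeq2. HOXA3 and HOXA5 fell, at log2 -0.99 and -0.65 against WT, HOXB3 and HOXB8 by -0.85 and -0.56, HOXC5 and HOXC11 by -1.84 and -0.94, and HOXD3, HOXD9 and HOXD10 by -1.66, -1.32 and -1.05. At the 5′ end of the clusters, HOXA13 was at -0.00 (adjusted p = 0.988), HOXC13 at -0.22 (adjusted p = 0.163) and HOXB13 was the 1 member that rose, by 0.46. HOXD13 fell, at -0.55. The bins that hold the A, C and D clusters had medians of log2 -0.05, -0.22 and 0.08 against WT, and that of the B cluster -0.14, and the named falls were larger than these. Components of the polycomb complexes, which keep HOX genes silent, were lower more often than higher, with 8 of 33 higher and 15 lower (median -0.13), and 4 were higher and 14 lower against p300 D1399Y sgHBB (median log2 -0.13), the number higher becoming 2 when p300 sgHBB replicate 1 or p300 D1399Y sgHBB replicate 1 was left out and 1 when p300 sgHBB replicate 2 or p300 D1399Y sgHBB replicate 2 was left out, and the number lower 9 without p300 sgHBB replicate 1 and 7 without p300 D1399Y sgHBB replicate 1. Among all tested genes 24.5% were higher and 21.6% lower than in WT, and falls outnumbered rises among those of mean log2 CPM 5 and above. RYBP and PHC3 rose by log2 1.12 and 0.75 and PHC1 fell, at -0.71. PHC3 lies in a bin with a median of 0.25.

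Genes of neurons rose from low levels. Of 23 tested, 17 rose and 3 fell against WT (median log2 0.98), beside 24.5% and 21.6% of all genes. Against p300 D1399Y sgHBB 13 rose and 3 fell (median 1.11), beside 15.4% and 15.0%. Against VPRP non-target 8 were higher and 8 lower in p300 sgHBB (median -0.3), beside 23.2% and 23.6%. SYN1, a synaptic vesicle protein gene, had 14.3 and 14.2 CPM in p300 sgHBB and 2.08 and 2.01 CPM in p300 D1399Y sgHBB, against 2.02 and 1.55 CPM in WT (7.97-fold over WT, adjusted p = 2.57e-12). SNAP25, a vesicle fusion gene, had 1.90 and 2.12 CPM in p300 sgHBB and 0.116 and 0.0692 CPM in p300 D1399Y sgHBB, against 0.0672 and 0.0647 CPM in WT. SCG2, of secretory granules, and TUBB3, a tubulin of neurons, had 0.245 and 0.589 and 0.184 and 0.353 CPM in p300 sgHBB and no read in WT (at least 4.25-fold and 2.73-fold). The call of SCG2 was lost without p300 sgHBB replicate 2, and that of TUBB3 without that replicate or either WT replicate. SCG3, also of secretory granules, rose by log2 2.16, VGF, a neuropeptide precursor, by 2.06, and NPTX2, a pentraxin of synapses, by 0.80. In contrast NEFM, a neurofilament gene, fell to 48.2 and 50.6 CPM in p300 sgHBB, against 109 and 99.6 CPM in p300 D1399Y sgHBB and 120.5 and 127 CPM in WT.

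Genes of the cleavage-stage embryo mostly had too few reads. Of 38 matched symbols 14 had enough reads to be tested, and 7 of these rose and none fell; 8 of the 14 tested had no WT read and passed the filter through other groups, so their share is no measure of the list. Of the 14, 6 were higher and 0 lower against p300 D1399Y sgHBB (median log2 1.99). Beside RFPL4A and the FRG2 family, CCNA1, a germ cell cyclin, had 2.14 and 2.24 CPM in p300 sgHBB and 0.134 and 0.129 CPM in WT, and SLC34A2, a phosphate transporter gene, had 1.22 and 1.12 CPM in p300 sgHBB and none in WT. In the cancer-testis list, 12 of 38 matched symbols were tested, and members may have passed the filter through other groups. The list's genes summed to 266 and 273 CPM in VPRP non-target and 62.2 and 64.2 CPM in p300 sgHBB. The counts are therefore no measure of the list. Against WT 4 rose and 5 fell, beside 24.5% and 21.6% of all genes. Against p300 D1399Y sgHBB 8 rose and 0 fell, beside 15.4% and 15.0%. The number higher became 2 when p300 sgHBB replicate 1 or WT replicate 2 was left out against WT, and 5 without p300 sgHBB replicate 1 against p300 D1399Y sgHBB. MAGEB1 had 0.734 and 0.177 CPM in p300 sgHBB and no read in p300 D1399Y sgHBB or WT (at least 4.55-fold over WT, a call lost without p300 sgHBB replicate 1), and MAGEB6 had 2.02 and 3.95 CPM in p300 sgHBB and 0.289 and 0 CPM in p300 D1399Y sgHBB, against 0.0672 and 0.129 CPM in WT. MAGEB2 had 8.63 and 8.07 CPM in p300 sgHBB and 1.91 and 2.63 CPM in p300 D1399Y sgHBB, against 26.3 and 27.3 CPM in WT, so that it was lower against WT and higher against the impaired fusion. MAGEA3 and MAGEA6, near-identical to each other, had the same order.

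Genes of the acetylation machinery other than EP300 were lower more often than higher. Against WT the same held for all tested genes of mean log2 CPM 5 and above, where many of these genes lie. Of 15 acetyltransferase and coactivator genes, 3 rose, EP300 included, and 8 fell against WT (median log2 -0.29), beside 24.5% and 21.6% of all genes. Against p300 D1399Y sgHBB 1 rose and 5 fell, beside 15.4% and 15.0%. CREBBP, the paralog of EP300, had 110.4 and 121 CPM in p300 sgHBB and 156 and 146 CPM in p300 D1399Y sgHBB, against 141 and 141 CPM in WT (log2 -0.29, SE 0.0739, adjusted p = 0.00167). KAT2A, the acetyltransferase of the SAGA complex, had 37.02 and 40.04 CPM in p300 sgHBB and 63.6 and 63.4 CPM in p300 D1399Y sgHBB, against 71.4 and 73.03 CPM in WT (log2 -0.91, adjusted p = 6.89e-11). KAT5, of the TIP60 complex, fell, at log2 -0.57, in a bin with a median of -0.26. For CREBBP and KAT2A the p300 sgHBB libraries were the lowest of these 3 groups, and the call of CREBBP against WT was lost without p300 sgHBB replicate 1.

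Of 25 deacetylases and their corepressors, 3 rose and 11 fell against WT. Beside this and the next 2 lists, 24.5% of all genes were higher and 21.6% lower than in WT. Against p300 D1399Y sgHBB the shares were 15.4% and 15.0%. In this list 4 were higher and 8 lower against p300 D1399Y sgHBB (median log2 -0.10), the number higher becoming 2 without p300 D1399Y sgHBB replicate 1, and the number lower 4 without p300 sgHBB replicate 1 and 3 without p300 D1399Y sgHBB replicate 1. HDAC5, a signal-regulated deacetylase, and MTA1, of the NuRD complex, fell, at log2 -0.83 and -0.76, while HDAC11 and HDAC2 rose by 0.93 and 0.40; HDAC11 and HDAC2 lie in bins with medians of 0.29 and 0.46. With upper-quartile scaling 5 members of the list rose in place of 3. Among 26 genes of acetyl-lysine readers 4 rose and 9 fell, with no member changed by 2-fold, and 0 were higher and 6 lower against p300 D1399Y sgHBB (median log2 -0.10), the number lower becoming 3 when p300 sgHBB replicate 1 or p300 D1399Y sgHBB replicate 1 was left out and 2 when p300 sgHBB replicate 2 or p300 D1399Y sgHBB replicate 2 was left out. ATAD2, a bromodomain ATPase in a bin with a median of -0.29, and its relative ATAD2B were at log2 -0.60 and -0.54, and HEXIM1, an inhibitor of transcription elongation, at 0.59. The number higher than in WT became 2 without p300 sgHBB replicate 1 and 1 when p300 sgHBB replicate 2 or WT replicate 1 was left out. Among 20 genes of factors that bind p300, 5 rose and 8 fell, and 3 were higher and 5 lower against p300 D1399Y sgHBB (median log2 -0.09), the number higher becoming 1 when p300 sgHBB replicate 2, p300 D1399Y sgHBB replicate 1 or p300 D1399Y sgHBB replicate 2 was left out, and the number lower 2 without p300 sgHBB replicate 1, 1 without p300 D1399Y sgHBB replicate 1 and 3 without p300 D1399Y sgHBB replicate 2. ETS1, an ETS factor, had 1.84 and 2.53 CPM in p300 sgHBB and 0.578 and 0.830 CPM in p300 D1399Y sgHBB, against 5.85 and 5.95 CPM in WT, lower against WT (log2 -1.43) and higher against the impaired fusion (log2 1.65, adjusted p = 0.000439). MYOD1, a muscle factor, was at log2 1.36, a call lost without WT replicate 1, and STAT3, a cytokine-activated factor, at 0.69. The number higher than in WT became 3 without p300 sgHBB replicate 2.

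**Figure D4:**
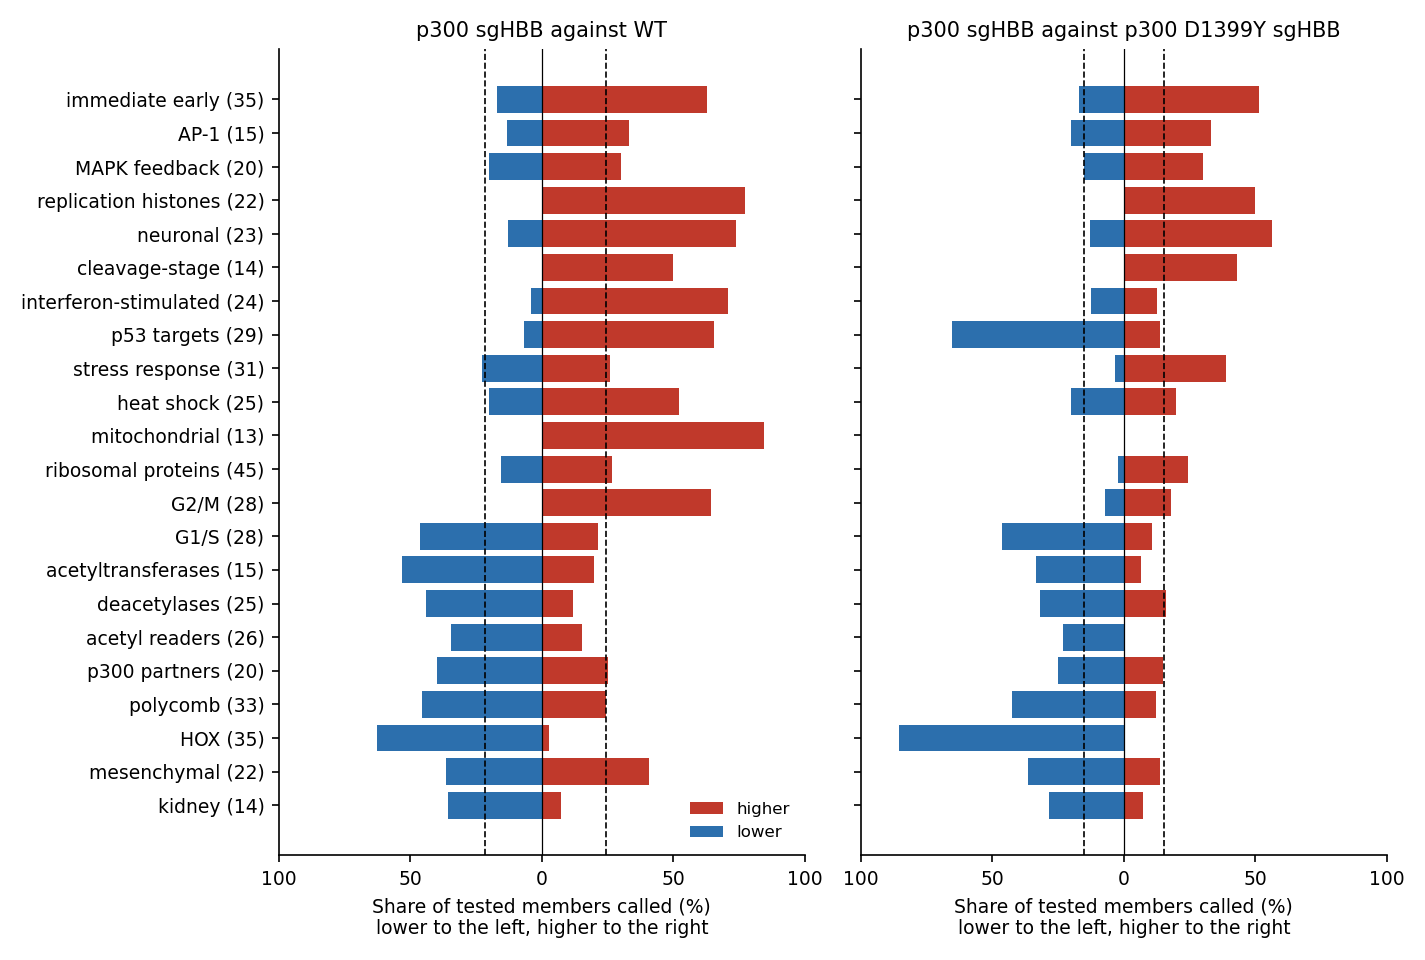
Share of the tested members of 22 gene lists that were higher (right) or lower (left) in p300 sgHBB, against WT in the left panel and against p300 D1399Y sgHBB in the right panel, with the number tested in brackets. Dashed lines give the shares over all genes, 24.5% and 21.6% against WT and 15.4% and 15.0% against p300 D1399Y sgHBB; immediate early, histone and neuronal genes exceed them to the right and HOX genes to the left in both panels, while p53 targets lie to the right against WT and to the left against p300 D1399Y sgHBB.

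Targets of p53 moved in opposite directions in the 2 comparisons. Of 29 p53 targets, 19 rose and 2 fell against WT (median log2 0.34), but 4 rose and 19 fell against p300 D1399Y sgHBB (median -0.40). Beside this list and the next 2, 24.5% of all genes were higher and 21.6% lower than in WT. Against p300 D1399Y sgHBB the shares were 15.4% and 15.0%. CDKN1A, a cell cycle inhibitor, had 122 and 134 CPM in p300 sgHBB and 205 and 196 CPM in p300 D1399Y sgHBB, against 44.8 and 43.02 CPM in WT. GDF15, a stress-induced cytokine, had 4.59 and 4.24 CPM in p300 sgHBB and 10.3 and 10.3 CPM in p300 D1399Y sgHBB, against 0.874 and 0.517 CPM in WT. Among these 3 groups the impaired fusion had the highest and WT the lowest values for both. TP53I3, an oxidoreductase gene, had 7.89 and 7.48 CPM in p300 sgHBB and 16.2 and 14.5 CPM in p300 D1399Y sgHBB, against 2.35 and 2.13 CPM in WT. GADD45B departed from this order, with 30.3 and 27.2 CPM in p300 sgHBB and 5.49 and 3.73 CPM in p300 D1399Y sgHBB, against 5.04 and 5.24 CPM in WT.

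Of 24 interferon-stimulated genes, 17 rose and 1 fell against WT (median log2 1.02), and 3 rose and 3 fell against p300 D1399Y sgHBB (median 0.21). The number lower became 0 when p300 sgHBB replicate 1 or WT replicate 2 was left out against WT, and 1 when p300 sgHBB replicate 1 or p300 D1399Y sgHBB replicate 2 was left out against p300 D1399Y sgHBB. IFI6 had 20.6 and 20.9 CPM in p300 sgHBB and 18.4 and 16.3 CPM in p300 D1399Y sgHBB, against 5.11 and 2.78 CPM in WT. IFIT1, an RNA-binding antiviral gene, had 9.18 and 8.48 CPM in p300 sgHBB and 5.09 and 5.19 CPM in p300 D1399Y sgHBB, against 1.95 and 2.85 CPM in WT. OAS3, an antiviral synthetase gene, had 1.90 and 1.24 CPM in p300 sgHBB, against 0.134 and 0.259 CPM in WT (log2 2.94). PARP9 rose by log2 3.13, in a bin of chromosome 3 with a median of 0.42. ISG15, a ubiquitin-like protein gene, was the member that fell, at log2 -0.81 against WT, a call lost without p300 sgHBB replicate 1 or without WT replicate 2.

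Stress lists were divided. Of 31 genes of the unfolded protein and integrated stress responses, 8 rose and 7 fell against WT, close to the shares of all genes, while 12 rose and 1 fell against p300 D1399Y sgHBB, the number lower becoming 0 when p300 sgHBB replicate 1 or p300 D1399Y sgHBB replicate 1 was left out. DDIT3, which encodes the stress factor CHOP, had 10.5 and 10.8 CPM in p300 sgHBB and 1.16 and 1.04 CPM in p300 D1399Y sgHBB, against 4.30 and 2.91 CPM in WT, the same order as ATF3. HSPA5, the main chaperone of the endoplasmic reticulum, rose by log2 0.71 against WT, and SLC7A5 and SLC6A9, amino acid transporter genes, fell, at -0.72 and -1.01. Of 25 heat shock genes 13 rose and 5 fell against WT, beside 24.5% and 21.6% of all genes. In the list 5 were higher and 5 lower against p300 D1399Y sgHBB (median log2 -0.04), the number higher becoming 3 without p300 sgHBB replicate 1, and the number lower 1 when p300 sgHBB replicate 1 or p300 D1399Y sgHBB replicate 2 was left out, 2 without p300 sgHBB replicate 2 and 3 without p300 D1399Y sgHBB replicate 1. The number higher than in WT became 8 without WT replicate 2, and the number lower 3 when p300 sgHBB replicate 1, p300 sgHBB replicate 2 or WT replicate 1 was left out. HSPA1B, which shares reads with HSPA1A, rose by log2 1.13. The heat shock factors HSF2 and HSF1 were at 0.92 and -0.75, in bins with medians of 0.46 and -0.62. Ribosomal protein genes changed little, with 12 of 45 higher, 7 lower and none by 2-fold against WT. In this list 11 were higher and 1 lower against p300 D1399Y sgHBB (median log2 0.10), the number higher becoming 2 without p300 sgHBB replicate 1, 5 without p300 sgHBB replicate 2 and 1 without p300 D1399Y sgHBB replicate 1, and the number lower 0 when p300 sgHBB replicate 2 or p300 D1399Y sgHBB replicate 2 was left out and 2 without p300 D1399Y sgHBB replicate 1. RPS3A, RPS12 and RPL32 rose by log2 0.77, 0.60 and 0.45, in bins with medians of 0.38, 0.23 and 0.29. Against WT the number higher became 6 when p300 sgHBB replicate 1 or WT replicate 2 was left out, and the number lower 4 when p300 sgHBB replicate 1 or WT replicate 2 was left out and 2 when p300 sgHBB replicate 2 or WT replicate 1 was left out.

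Against WT, cell cycle genes split by phase. Of 28 G1/S genes 6 rose and 13 fell, and of 28 G2/M genes 18 rose and 0 fell (medians log2 -0.13 and 0.26). Among the G1/S genes 3 were higher and 13 lower against p300 D1399Y sgHBB (median log2 -0.17), the number higher becoming 0 without p300 sgHBB replicate 2, and the number lower 8 without p300 sgHBB replicate 1. Among the G2/M genes 5 were higher and 2 lower against p300 D1399Y sgHBB (median log2 0.06), the number higher becoming 2 when p300 sgHBB replicate 1 or p300 D1399Y sgHBB replicate 1 was left out and 3 without p300 D1399Y sgHBB replicate 2, and the number lower 0 when p300 sgHBB replicate 1 or p300 D1399Y sgHBB replicate 1 was left out and 1 when p300 sgHBB replicate 2 or p300 D1399Y sgHBB replicate 2 was left out. Of all genes 24.5% were higher and 21.6% lower than in WT, and against p300 D1399Y sgHBB 30.4% were called in either direction. The D-type cyclin genes CCND1 and CCND2 had 20.99 and 20.9 and 34.2 and 39.98 CPM in p300 sgHBB, against 54.8 and 60.7 and 91.2 and 90.2 CPM in WT. CKS2, a cyclin-dependent kinase subunit, rose by log2 0.83, and DLGAP5, a spindle gene, and CDK1, the mitotic kinase, were next with 0.57 and 0.56. Among 25 apoptosis genes 8 rose and 9 fell, with BCL2, which protects from apoptosis, at log2 -1.12 and the BH3-only genes HRK and BIK at -1.17 and 2.19 (1.31 for BIK when WT replicate 1 was left out and 5.11 when replicate 2 was), and 4 were higher and 9 lower against p300 D1399Y sgHBB (median log2 -0.17), the number higher becoming 2 without p300 D1399Y sgHBB replicate 2, and the number lower 2 without p300 sgHBB replicate 1, 4 when p300 sgHBB replicate 2 or p300 D1399Y sgHBB replicate 2 was left out and 5 without p300 D1399Y sgHBB replicate 1. The number lower than in WT became 5 without p300 sgHBB replicate 2.

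Developmental signalling and cell state lists held single large changes in both directions. Their counts stand beside shares of all genes of 24.5% higher and 21.6% lower against WT, and 15.4% and 15.0% against p300 D1399Y sgHBB. In the WNT list 12 of 35 rose and 9 fell against WT. In this list 5 were higher and 6 lower against p300 D1399Y sgHBB (median log2 -0.13), the number lower becoming 3 when p300 sgHBB replicate 1 or p300 D1399Y sgHBB replicate 1 was left out. DKK3 and WNT4, a secreted WNT modulator and a ligand, rose by log2 3.08 and 2.59, and by 1.02 and 2.12 against p300 D1399Y sgHBB, where WNT4 was at 3.03 without p300 D1399Y sgHBB replicate 1. FZD10, a WNT receptor, fell to 2.33 and 2.53 CPM in p300 sgHBB, against 18.8 and 15.5 CPM in WT, and its antisense neighbour FZD10-AS1 fell with it; the counts may not separate the strands. In the NOTCH list 7 of 27 rose and 10 fell, with MFNG, a modifier of NOTCH receptors, at log2 3.86 (3.09 when WT replicate 1 was left out, 5.71 when replicate 2 was) and the ligand DLL1 at -0.97, and 6 were higher and 6 lower against p300 D1399Y sgHBB (median log2 -0.16), the number lower becoming 3 when p300 sgHBB replicate 1 or p300 D1399Y sgHBB replicate 1 was left out. The target genes HES5 and HES2 were at -2.09 and 1.09, the second a call lost with any 1 library left out and in DESeq2. Against WT the number higher became 4 when p300 sgHBB replicate 1 or WT replicate 1 was left out. In the TGF-beta and BMP list 7 of 31 rose and 8 fell, with the antagonists CHRD at 1.91 and NOG at -1.05, and 1 was higher and 7 lower against p300 D1399Y sgHBB (median log2 -0.13), the number higher becoming 0 when p300 sgHBB replicate 2 or p300 D1399Y sgHBB replicate 2 was left out, and the number lower 3 without p300 D1399Y sgHBB replicate 1. The ligand BMP2 was at 2.38.

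Of 22 mesenchymal genes 9 rose and 8 fell against WT, beside 24.5% and 21.6% of all genes. In the list 3 were higher and 8 lower against p300 D1399Y sgHBB (median log2 -0.13), the number higher becoming 1 when p300 sgHBB replicate 2 or p300 D1399Y sgHBB replicate 1 was left out. SNAI2, a repressor of epithelial genes, had 7.16 and 5.54 CPM in p300 sgHBB and 8.38 and 10.4 CPM in p300 D1399Y sgHBB, against 38.2 and 36.2 CPM in WT. Its relative SNAI1 had 5.26 and 5.95 CPM in p300 sgHBB and 1.16 and 1.52 CPM in p300 D1399Y sgHBB, against 0.941 and 0.647 CPM in WT. VIM, vimentin, and CDH2, N-cadherin, fell, at log2 -0.95 and -0.81; CDH2 lies in a bin of chromosome 18 with a median of -0.45, VIM in one of chromosome 10 with a median of 0.47. Among 20 epithelial genes 7 rose and 2 fell against WT, and 1 was higher and 9 lower against p300 D1399Y sgHBB (median log2 -0.40). Against WT the number higher became 4 without WT replicate 1, and the number lower 1 when p300 sgHBB replicate 1, p300 sgHBB replicate 2, WT replicate 1 or WT replicate 2 was left out. CLDN1 and CLDN7, tight junction genes, were at log2 1.90 and 1.67 against WT, the second a call lost with any 1 library left out and in DESeq2. KRT8, a keratin, had 48.7 and 51.00 CPM in p300 sgHBB and 88.4 and 87.7 CPM in p300 D1399Y sgHBB, against 26.3 and 28.5 CPM in WT. In the cAMP list, which also holds SCG2, 5 of 16 rose and 3 fell against WT, and 7 were higher and 2 lower against p300 D1399Y sgHBB (median log2 0.44), the number lower becoming 1 when p300 sgHBB replicate 1, p300 sgHBB replicate 2, p300 D1399Y sgHBB replicate 1 or p300 D1399Y sgHBB replicate 2 was left out. CGA, the glycoprotein hormone alpha subunit, had 7.59 and 5.24 CPM in p300 sgHBB and 0.462 and 0.622 CPM in p300 D1399Y sgHBB, against 0.739 and 0.906 CPM in WT. In the cholesterol and lipid list 10 of 29 rose and 13 fell against WT, and 10 were higher and 8 lower against p300 D1399Y sgHBB (median log2 0.06), the number lower becoming 5 without p300 D1399Y sgHBB replicate 2. MSMO1, a sterol oxidase gene, was at log2 1.17 in a bin with a median of 0.38, SCD, a fatty acid desaturase, at -0.75 and SREBF1, a regulator of lipid synthesis, at -0.83.

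Of 24 hypoxia targets 8 were higher and 6 lower than in WT, beside 24.5% and 21.6% of all genes. In this list 6 were higher and 2 lower against p300 D1399Y sgHBB (median log2 0.13), the number higher becoming 1 without p300 sgHBB replicate 1 and 3 without p300 D1399Y sgHBB replicate 1, and the number lower 0 when p300 sgHBB replicate 1, p300 sgHBB replicate 2 or p300 D1399Y sgHBB replicate 1 was left out and 1 without p300 D1399Y sgHBB replicate 2. Beside NDRG1, the largest changes were in ADM, the adrenomedullin gene, and ANKRD37, at log2 1.71 and 1.67; ANKRD37 lies in a bin with a median of 0.75, and its call was lost without p300 sgHBB replicate 1. Of 14 NF-kB targets 3 were higher and 2 lower than in WT. In the list 4 were higher and 2 lower against p300 D1399Y sgHBB (median log2 0.21), the number higher becoming 2 without p300 sgHBB replicate 2 and 1 without p300 D1399Y sgHBB replicate 2, and the number lower 1 when p300 sgHBB replicate 1, p300 sgHBB replicate 2, p300 D1399Y sgHBB replicate 1 or p300 D1399Y sgHBB replicate 2 was left out. TNFAIP3, an inhibitor of the pathway, IRF1, an interferon regulatory factor, and RELB, a subunit of NF-kB, rose by log2 1.09, 0.77 and 0.52, and the call of RELB was lost with any 1 library left out, with RLE scaling, with the replicate block, without the low-count filter and in DESeq2. The DNA methylation list had 5 of 15 higher and 4 lower than in WT, the number higher becoming 3 when p300 sgHBB replicate 1 or WT replicate 1 was left out, and 3 were higher and 4 lower against p300 D1399Y sgHBB (median log2 -0.02), the number lower becoming 1 when p300 sgHBB replicate 1 or p300 D1399Y sgHBB replicate 1 was left out and 2 without p300 D1399Y sgHBB replicate 2. Beside GADD45B, its relative GADD45A was at log2 1.13 and the methyltransferase DNMT3A at -0.65, the second a call lost without WT replicate 2.

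Markers of the cell types a culture could hold were checked. Their counts stand beside 24.5% of all genes higher and 21.6% lower than in WT. Of 14 tested kidney genes 1 rose and 5 fell, the number lower becoming 3 without p300 sgHBB replicate 1 and 2 without WT replicate 2. In this list 1 was higher and 4 lower against p300 D1399Y sgHBB (median log2 -0.28), the number lower becoming 1 when p300 sgHBB replicate 1 or p300 D1399Y sgHBB replicate 1 was left out. OSR1, a factor of the early kidney, had 0.0612 and 0.177 CPM in p300 sgHBB, against 0.336 and 0.906 CPM in WT (log2 -2.31), a call lost without either p300 sgHBB replicate, without WT replicate 2, with upper-quartile scaling, with the replicate block and in DESeq2. RET, a growth factor receptor gene, rose by log2 1.52. The nephron progenitor factors SIX2 and SALL1 had reads in all 4 libraries, with 30.8 and 32.9 and 23.7 and 22.8 CPM in p300 sgHBB, against 63.8 and 64.2 and 42.7 and 43.5 CPM in WT. In the leukocyte list 2 of 13 rose and 2 fell, the number higher becoming 1 when p300 sgHBB replicate 2, WT replicate 1 or WT replicate 2 was left out. In the list 1 was higher and 4 lower against p300 D1399Y sgHBB (median log2 0.15), the number higher becoming 0 when p300 sgHBB replicate 1, p300 sgHBB replicate 2 or p300 D1399Y sgHBB replicate 1 was left out, and the number lower 2 without p300 sgHBB replicate 1. CD14 and CSF1R, of monocytes, had 0.734 and 0.942 and 1.10 and 1.24 CPM in p300 sgHBB, against 0.0672 and 0.129 and 0.403 and 0.129 CPM in WT; the call of CD14 was lost without WT replicate 1 and that of CSF1R without p300 sgHBB replicate 2 or WT replicate 2 (fitted log2 2.11, 3.10 without WT replicate 1). The listed genes summed to 13.2 and 13.2 CPM in p300 sgHBB and 16.9 and 18.3 CPM in WT, with 4 and 7 of 20 genes at 0 reads in p300 sgHBB and WT. PTPRC, which marks leukocytes, had 0 and 0 CPM in p300 sgHBB and 0 and 0 CPM in WT. In the fibroblast list 6 of 10 rose and 2 fell, the number lower becoming 1 when p300 sgHBB replicate 1 or WT replicate 1 was left out, and 2 were higher and 2 lower against p300 D1399Y sgHBB (median log2 0.15), the number higher becoming 0 when p300 sgHBB replicate 1 or p300 sgHBB replicate 2 was left out and 1 when p300 D1399Y sgHBB replicate 1 or p300 D1399Y sgHBB replicate 2 was left out, and the number lower 1 when p300 sgHBB replicate 1 or p300 sgHBB replicate 2 was left out and 0 without p300 D1399Y sgHBB replicate 1. The growth factor receptor gene PDGFRB was higher than in WT at a count ratio of 12.7 with a 95% interval of 4.07 to 64.3, COL6A3, a collagen gene, at log2 2.08 and S100A4 at 1.43. The 2 members that fell were also collagen genes. COL6A1, with 218 and 223 CPM in p300 sgHBB against 305 and 287 CPM in WT, was at log2 -0.43, in a bin with a median of -0.46. COL3A1 was at -0.81. The list's genes summed to 422 and 434 CPM in p300 sgHBB and 462 and 441 CPM in WT. COL1A1, another collagen gene, had 28.6 and 27.4 CPM in p300 sgHBB and 37.9 and 32.4 CPM in p300 D1399Y sgHBB, against 13.2 and 11.1 CPM in WT. In bulk RNA a change in the number of cells of a type and in RNA per cell cannot be told apart.

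The direct comparison of p300 sgHBB with p300 D1399Y sgHBB used the same guide. In p300 sgHBB, 2575 genes (15.4%) were higher and 2501 (15.0%) lower, and 5076 (30.4%) passed in either direction; 735 (4.40%) were at least 2-fold higher and 178 (1.07%) at least 2-fold lower, together 913 (5.47%). The 5076 became 3226 without p300 sgHBB replicate 1 and 3193 without p300 D1399Y sgHBB replicate 1. The largest rises were MIR7-3HG (at least 170-fold), GOLGA6FP (at least 18.4-fold), FRG2B, at a count ratio of 119 with a 95% interval of 21 to 4740, DHRS2 (91.2-fold), FRG2C, at a count ratio of 95.3 with a 95% interval of 16.7 to 3800 and RFPL4A, at a count ratio of 70.5 with a 95% interval of 23.8 to 345, of which GOLGA6FP and the FRG2 genes have near-identical copies. Fitted log2 changes without p300 D1399Y sgHBB replicate 1 and without its replicate 2 were 8.92 and 5.84 for FRG2B and 5.30 and 8.62 for FRG2C.

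The largest falls against p300 D1399Y sgHBB followed. MPO, the myeloperoxidase gene of neutrophils, had 0.122 and 0 CPM in p300 sgHBB and 4.97 and 5.39 CPM in p300 D1399Y sgHBB, and no read in WT. EVPL, of the skin's cornified envelope, had 4.16 and 3.42 CPM in p300 sgHBB and 27.3 and 25.8 CPM in p300 D1399Y sgHBB, against 0.202 and 0.194 CPM in WT. IGFBP5, an insulin-like growth factor binding protein gene, had 28.1 and 28.8 CPM in p300 sgHBB and 111 and 104 CPM in p300 D1399Y sgHBB, against 60.2 and 60.4 CPM in WT. DMBT1, AEBP1 and PPL, periplakin, were lower, at log2 -2.52, -2.10 and -1.79. Without p300 sgHBB replicate 1 and without replicate 2 MPO was at -9.39 and -5.32 (fitted log2 -6.26 with both), and AEBP1 at -2.80 without replicate 2. AEBP1 was higher than WT, at a count ratio of 9.1 with a 95% interval of 2.21 to 80.3, a call lost without p300 sgHBB replicate 2 or WT replicate 1.

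Against VPRP non-target, from which EP300 did not differ detectably (log2 -0.06, SE 0.0796), 3879 genes (23.2%) were higher in p300 sgHBB and 3942 (23.6%) lower, 7821 (46.8%) in either direction. Large differences ran the other way from those against WT, with 524 (3.14%) at least 2-fold higher and 1532 (9.18%) at least 2-fold lower, together 2056 (12.3%). HBB was at least 2150-fold higher. TWIST2, NCAM2, PARP9, COL16A1 and SV2A were the other largest rises and FOXJ1, MAGEA10, LINC00470, MPO and MAGEA3 among the largest falls. NCAM2, an adhesion molecule gene, had 7.59 and 7.24 CPM in p300 sgHBB and 0.243 and 0.665 CPM in VPRP non-target, and FOXJ1, the factor of motile cilia, 0.122 and 0.353 CPM in p300 sgHBB and 13.8 and 10.9 CPM in VPRP non-target. Fitted log2 changes were 4.90 for NCAM2 without VPRP non-target replicate 2 (3.98 with both) and -6.56 for FOXJ1 without p300 sgHBB replicate 2 (-5.64 with both). This comparison crosses the MAGEA10 difference and also changes the guide and adds VPR, so these cannot be told apart. Of genes described above, DHRS2 was lower in p300 sgHBB (log2 -1.62) and EGR1 at log2 -0.17 (adjusted p = 0.146), while ATF3 was 4.66-fold higher.

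The position of genes on the chromosomes separated the libraries. Each chromosome was divided into 10 bins of equal gene number in annotated order, using genes with a mean log2 CPM of at least 3, and the median log2 change was taken in each of the 230 bins. The division was chosen after values had been seen. Against WT, 34 bins had a median at or beyond 0.25 in size, 17 positive and 17 negative, from -0.62 to 0.75. Against p300 D1399Y sgHBB 1 bin did, with a range of -0.26 to 0.21, and against VPRP non-target 29 did, from -0.65 to 0.95.

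The bins lay in blocks. The last 2 bins of chromosome 13 had medians of 0.69 and 0.75 and those of chromosome 4 of 0.38 and 0.75; of the 38 genes in the last bin of chromosome 4, 36 were higher and 0 lower, and of the 18 in the last bin of chromosome 13 all 18 were higher. On chromosome 3, 7 of 10 bins had medians from 0.25 to 0.58, and the first 2 bins of chromosome 10 had 0.35 and 0.47. The last 3 bins of chromosome 8 were negative, at -0.29, -0.60 and -0.62. On log2(CPM + 0.5) means, in p300 D1399Y sgHBB against WT the last bins of chromosomes 13, 4 and 8 had medians of 0.77, 0.67 and -0.55, the first 2 of chromosome 10 had 0.32 and 0.33, and the 7 bins of chromosome 3 ran from 0.19 to 0.49. In VPRP non-target against WT the last bins of chromosomes 13, 4 and 8 were at -0.26, -0.05 and 0.05. A copy number difference between the cells was not tested.

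Without the 1960 genes of these 34 bins, 14734 genes remained, of which 6533 (44.3%) passed, 3374 higher and 3159 lower, with 1249 and 402 at least 2-fold. Within the bins, 1161 of 1960 genes (59.2%) passed, 710 higher and 451 lower. FRG2 and ALPG lie in bins with medians of 0.75 and 0.34, TWIST2 in that of ALPG, and EGR1, FOS, DHRS2, RFPL4A and H2AC6 in bins with medians between -0.10 and 0.02.

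**Figure D5:**
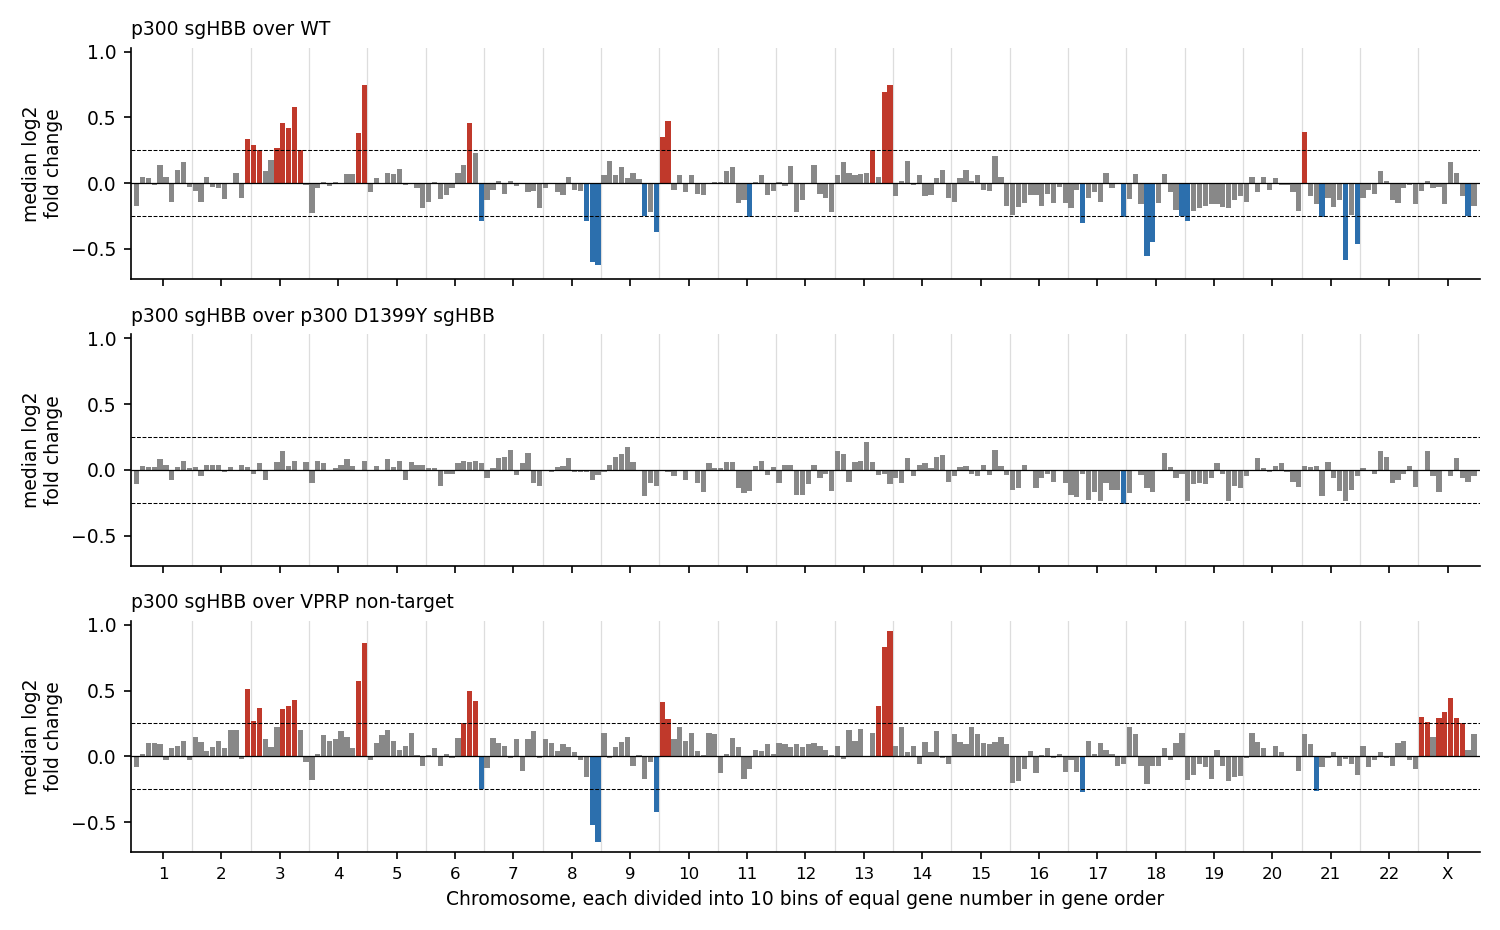
Median log2 fold change of each chromosome bin, for p300 sgHBB over WT (top), over p300 D1399Y sgHBB (middle) and over VPRP non-target (bottom). Bars at or beyond 0.25 in size, marked by dashed lines, are coloured; those at the ends of chromosomes 4, 8 and 13 and along chromosome 3 appear against WT and against VPRP non-target, and are missing against p300 D1399Y sgHBB.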

How the data were processed

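Poly(A) RNA of sorted HEK293 cells was sequenced in 12 libraries (2 for each of 6 groups); the 10 ChIP samples of the series were not analysed here. The deposited values are raw read counts per gene, which the authors made with STAR 2.5 and HTSeq 0.6.1, per the submitters' processing notes, which also list DESeq2 1.24.0 and hg19. Neither annotation release nor strand setting is given in the sources used here. From 48162 gene IDs, 16694 passed filterByExpr (minimum count 10, total 15). edgeR 4.0.16 (R 4.3.3, limma 3.58.1) fitted 1 mean per group over all 12 libraries after TMM scaling. Library totals ran from 14894558 to 17479523 reads.

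The named genes are the 12 largest changes each way against WT and the 6 largest in each other comparison, among called genes of at least 2-fold and mean log2 CPM of at least 1 whose groups do not overlap, the 8 largest CPM changes each way, and the called members of a list by size of change, usually 3 and at most 6, with further members for their role. Members, lists and rule were chosen with earlier results of these data known, and some genes that the rule names are not reported here. Symbols matched 966 of 1017 list entries and 33626 IDs. On simulated counts for p300 sgHBB against WT over 15992 genes, edgeR recovered 44.3% of 61 genes changed 1.5-fold, 85.1% of 67 changed 2-fold and 95.8% of 71 changed 4-fold. The simulation changed only this small set of genes, in p300 sgHBB alone, and gave every gene the same spread between replicates. In the real counts many genes differ between all groups and the spread varies, so these shares need not hold for them. Alternatives were RLE and upper-quartile scaling, no filter and a stricter one, a replicate block, DESeq2 1.42.0, a fit to the compared groups alone and leaving out each library. Intervals are exact binomial at 95% and, like the floor of 3 counts, cover counting error only, since no molecular identifiers are mentioned in the labels. Promoters came from RefSeq tables, used by symbol.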

Additional observations from a re-analysis of the deposited data

Results flagged for a closer look

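Several results differed between p300 sgHBB and p300 D1399Y sgHBB in the direct test of the difference (edgeR, Benjamini-Hochberg adjustment over all genes, log2 values p300 sgHBB minus p300 D1399Y sgHBB). HBB was higher by 1.24 (adjusted p = 1.14e-10) and EP300 by 2.53 (adjusted p = 2.95e-22). HBE1 was higher by 6.03 (adjusted p = 3.65e-07), a value fitted against 1 read in p300 D1399Y sgHBB.

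Large fitted differences were also found for RFPL4A at 6.03, FRG2B at 6.58, MIR7-3HG at 11.02, GOLGA6FP at 7.82 and FRG2C at 6.26, and their sizes depend on the prior count because p300 D1399Y sgHBB held next to no reads. DHRS2 differed by 6.51 (adjusted p = 1.17e-28), with reads in both groups. On the lower side stood MPO at -6.26, EVPL at -2.81, DMBT1 at -2.52, AEBP1 at -2.10, IGFBP5 at -1.92 and PPL at -1.79 (highest adjusted p = 0.00012, for AEBP1). For all of these genes the libraries of the groups did not overlap. The rule that named the genes other than HBB, EP300 and HBE1 required this, so it adds no evidence for them.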

How the results depend on the processing

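Against WT, the count of 7694 genes ran from 6056 to 6410 when 1 library was left out and from 6511 in DESeq2 to 8020 with only the compared groups fitted. Against p300 D1399Y sgHBB, the count of 5076 ran from 3193 to 3746 with 1 library left out, where the lone library of a group is assumed to vary like the others, and was 3853 in DESeq2; that fewer libraries gave fewer calls follows from the construction. Against VPRP non-target, the count of 7821 ran from 5998 to 6200 with 1 library left out. The limit for HBB ran from 9.86 to 10.90 on the log2 scale and the change of EP300 from 3.35 to 3.45 with 1 library left out. With the replicate number as a block, 7498 genes passed against WT (3981 higher and 3517 lower), 4837 against p300 D1399Y sgHBB and 7609 against VPRP non-target; correlations between same-numbered libraries of different groups ran from -0.139 to 0.117, so the numbers do not pair the libraries. Left out after seeing the data, the genes of the shifted chromosome bins leave 6533, 4413 and 6649 genes in the same order of comparisons. No called gene named in the text changed direction under any alternative run, and direction was not compared for the other genes. Depth limits genes of low count: 3 reads over a group correspond to 0.09 CPM in p300 sgHBB and 0.0989 CPM in WT, and a difference under that is not detectable.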
